A study of Mus musculus with 9 samples.

Results

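Fetal Leydig cells are known by their steroid enzymes and also by a set of genes for hormones, hormone receptors and a surface adhesion molecule. The 8 genes described here are of that second kind: Insl3, Sct and Ren1, which encode secreted products, Rxfp2, Lhcgr, Prlr and Crhr1, which encode hormone receptors, and Vcam1, which encodes an adhesion molecule. They were chosen by symbol, as marker genes of fetal Leydig cells other than those of steroid synthesis, and are 8 of 38560 genes in the count table. Insl3 is a relaxin-like hormone of Leydig cells that acts through the receptor Rxfp2 on the ligament that draws the testis down. Lhcgr binds luteinising hormone, Crhr1 binds corticotropin releasing hormone, and both raise cyclic AMP, the messenger that drives steroid synthesis in Leydig and adrenal cells. Prlr is a cytokine receptor that signals through Jak2 and Stat5, renin starts the angiotensin cascade by cleaving angiotensinogen, and Vcam1 is bound by integrins made of Itga4 or Itga9 with Itgb1.

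The data were 9 stranded, ribosome-depleted total RNA libraries from male mouse gonads at 12.5 days post coitum. Of 3 populations sorted by flow cytometry, named Leydig, Interstitial and Sertoli, each gave 3 libraries. All embryos carried the Sf1-eGFP transgene, a green reporter under regulatory sequence of the steroidogenic factor gene Nr5a1, and the labels give no treatment that differed between the populations. Each sample pooled cells from about 10 sorts of several litters made on different days, so that a replicate is a pool and not an animal, and CD31-positive cells (endothelial and germ cells) were to be removed in the sort. The labels' protocols describe, for each population, samples called A and B and a further one that mixes both. Replicate C was taken by elimination as the mix, so its levels are given and the tests used replicates A and B (n = 2 per population).

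Between 33123254 and 39244060 reads per library fell in genes. Levels are given as CPM, read counts scaled to a common library size with TMM factors, and 3 reads, the limit that a count of 0 allows, were 0.0764 to 0.0906 CPM. Such a limit covers counting error only, since PCR copies are not independent molecules. The population labels were checked against marker genes of the named cell types. The 10 Sertoli markers summed to 1086 to 1130 CPM in Leydig, 179 to 207 in Interstitial and 3664 to 3858 in Sertoli libraries. The 7 interstitial progenitor markers summed to 1557 to 1740 CPM in Leydig, 1172 to 1226 in Interstitial and 427 to 447 in Sertoli. Germ cell markers, 8 in number, summed to 55.3 to 228 CPM in Leydig, 830 to 961 in Interstitial and 62.6 to 95.6 in Sertoli. Erythroid markers, also 8, summed to 140 to 501 CPM in Leydig, 11848 to 12459 in Interstitial and 138 to 401 in Sertoli. The 4 steroid synthesis genes were Star, which encodes a cholesterol carrier, and the enzyme genes Cyp11a1, Hsd3b1 and Cyp17a1. They summed to 231 to 437 CPM in Leydig, 41.1 to 64.5 in Interstitial and 246 to 294 in Sertoli. The libraries labelled Leydig and Sertoli therefore overlapped in the genes that define Leydig cells, where the edgeR adjusted p of the 4 genes was 0.222 to 0.786. Fewer cells of a type and less RNA per cell cannot be told apart in such pooled samples.

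The 3 populations were compared with edgeR's quasi-likelihood test, and a gene is called where its adjusted p was under 0.05. Among the 8 genes, 7 were called higher in Leydig than in Interstitial libraries, by 2.94-fold (Vcam1) to 6.75-fold (Lhcgr), and Rxfp2 was lower. Against Sertoli libraries only Rxfp2 (9.14-fold), Vcam1 (2.35-fold) and Prlr (1.72-fold) were called higher in Leydig. The secreted products Insl3, Sct and Ren1 and the receptors Lhcgr and Crhr1 were not called there. In Interstitial against Sertoli, Rxfp2 was 15.2-fold higher, the 3 secreted products and the other 3 receptors were lower, and Vcam1 was not called.

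These counts stand beside the share of all tested genes called. In Leydig against Sertoli, 3 of 8 members were called, all of them higher, where 37.5% of 18048 tested genes were called, 16.9% higher and 20.6% lower. The median log2 fold change was 0.48 over the members and -0.01 over all tested genes. In Leydig against Interstitial, 8 of 8 were called, 7 higher and 1 lower, where 45.1% of genes were called, 22.0% higher and 23.2% lower. The medians were 2.01 over the members and 0.01 over all genes. In Interstitial against Sertoli, 7 of 8 were called, 1 higher and 6 lower, where 61.8% of genes were called, 32.7% higher and 29.1% lower. The medians there were -1.95 and 0.04. All 8 members passed the filter on low counts. With library size alone in place of TMM, the share of calls that were higher was 58.8% in Leydig against Sertoli (45.1% with TMM) and 65.2% in Interstitial against Sertoli (52.9% with TMM). The median of all genes then moved by 0.102 and 0.168, and the counts of members called stayed at 3, 8 and 7.

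**Figure D1:**
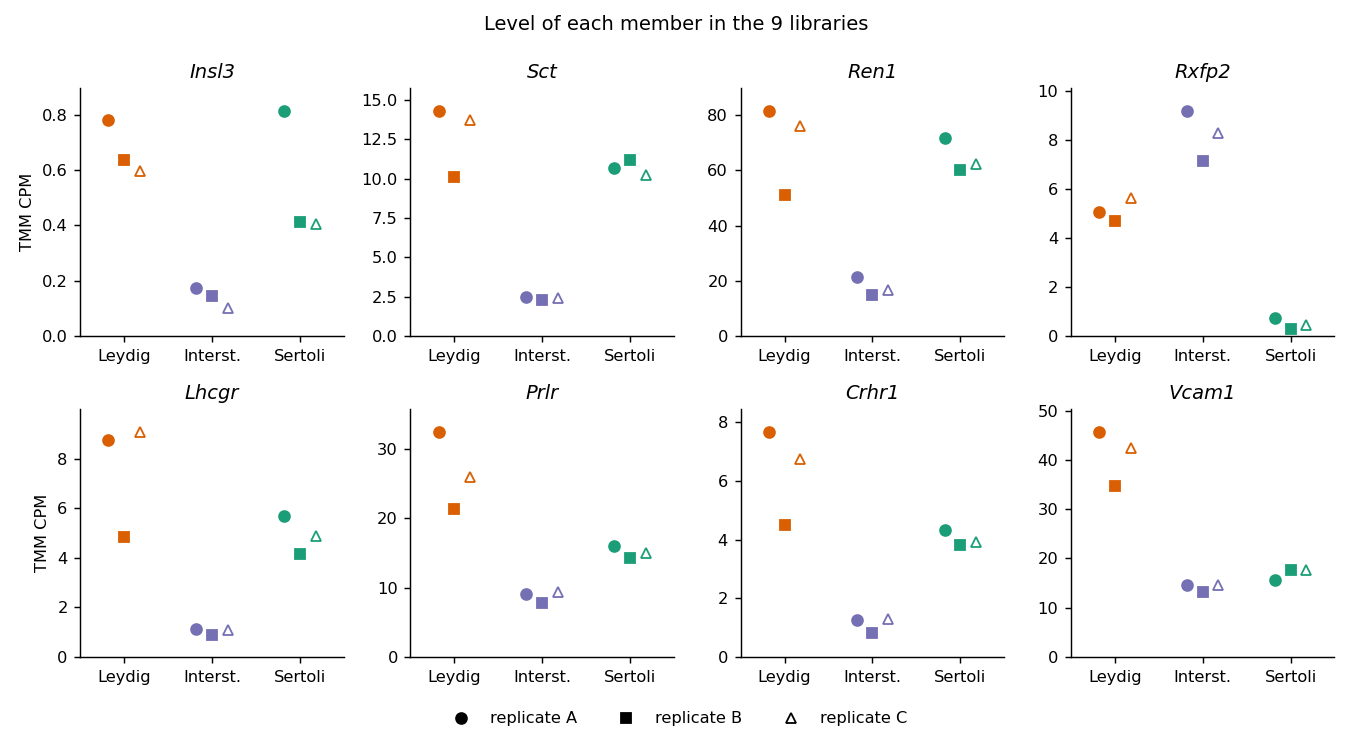
Level of each of the 8 genes in the 9 libraries, in TMM-normalised CPM on a linear axis that starts at 0. Filled circles and squares are replicates A and B, open triangles replicate C. For 7 genes every Leydig library lies above every Interstitial library, and for Rxfp2 every Interstitial library lies above the others. The share of all tested genes with such separation was not computed. The Leydig and Sertoli libraries overlap for Insl3, Sct, Ren1 and Lhcgr.

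**Figure D2:**
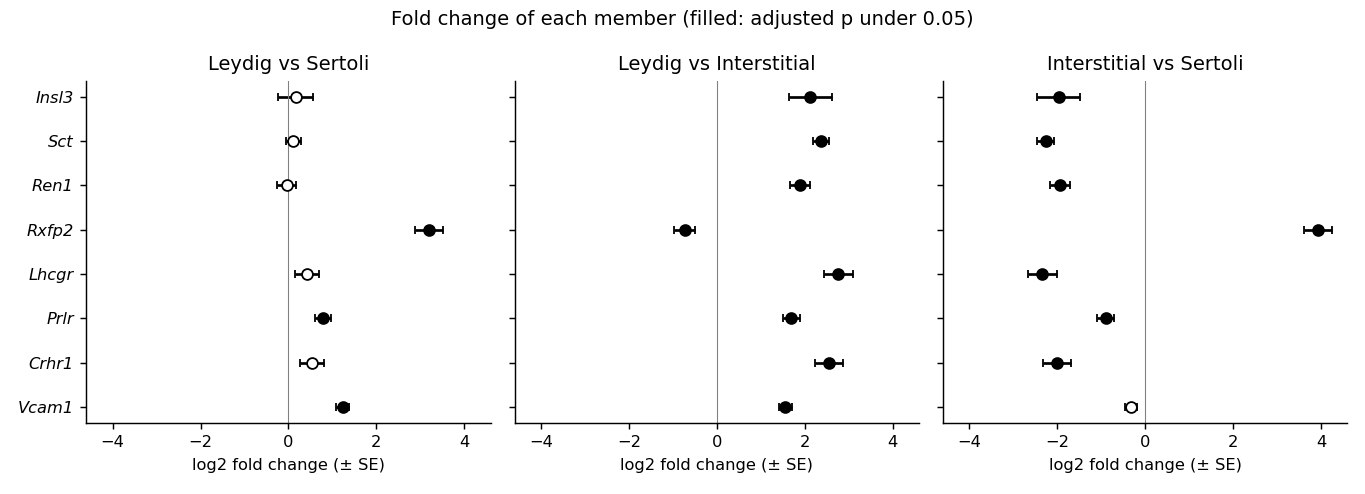
Log2 fold change of each gene in the 3 comparisons, with bars of 1 SE, from edgeR's quasi-likelihood fit on replicates A and B. Filled points passed an adjusted p of 0.05. In Leydig against Sertoli 3 points are filled, in Leydig against Interstitial all 8, and in Interstitial against Sertoli all but Vcam1.

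Insl3 (ENSMUSG00000079019, chromosome 8, 71689214 to 71690575, plus strand, GRCm38) had the fewest reads of the 8 genes over the 9 libraries together. It stood at 0.782, 0.634 and 0.595 CPM in Leydig libraries A, B and C, 0.173, 0.145 and 0.0996 CPM in Interstitial, and 0.813, 0.411 and 0.404 CPM in Sertoli. These values rest on 22 to 26 reads per Leydig library, 4 to 7 per Interstitial library and 14 to 29 per Sertoli library. Every Leydig library was above every Interstitial library, while Leydig and Sertoli libraries overlapped and Sertoli replicate A was the highest of all 9. The difference was 4.38-fold in Leydig against Interstitial (log2 2.13 ± 0.48, SE; edgeR adjusted p 0.00674) and 0.16 ± 0.39 on the log2 scale in Leydig against Sertoli (edgeR adjusted p 0.783). Interstitial was 3.92-fold lower than Sertoli (log2 -1.97 ± 0.48, edgeR adjusted p 0.00681), but without Sertoli replicate A this was -1.40 (edgeR adjusted p 0.0674). Over lanes 1 and 2 alone, the Leydig against Interstitial difference was 1.59 (edgeR adjusted p 0.0913).

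The Insl3 level is also limited by its position. In the GENCODE M21 annotation, 404 of the 623 exonic bases of Insl3 (64.8%) are shared with Jak3 on the same strand. A counter that sets aside reads assigned to more than 1 gene would leave Insl3 the other 219 bases, and the setting the authors used is not given in the sources used here. Per kilobase of the full length Insl3 stood at 1.14 RPKM (CPM per kilobase of exon) in Leydig, 0.256 in Interstitial and 0.982 in Sertoli. Per kilobase of the unshared bases these would be 3.23, 0.728 and 2.79 RPKM. Jak3 itself was higher in Interstitial libraries, with 7.55, 8.1 and 6.39 CPM in Leydig, 14.5, 15.3 and 13.1 CPM in Interstitial, and 7.63, 5.87 and 6.2 CPM in Sertoli replicates A, B and C.

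Sct encodes secretin, a peptide hormone first known from the gut (ENSMUSG00000038580, chromosome 7, 141278330 to 141279133, minus strand). It had 14.3, 10.1 and 13.7 CPM in Leydig libraries A, B and C, 2.45, 2.3 and 2.39 CPM in Interstitial, and 10.7, 11.2 and 10.2 CPM in Sertoli. The 3 Interstitial libraries lay within a narrow range far below the others, and Leydig and Sertoli overlapped. Sct was 5.17-fold higher in Leydig than in Interstitial (log2 2.37 ± 0.19, edgeR adjusted p 3.72e-05) and 4.78-fold lower in Interstitial than in Sertoli (log2 -2.26 ± 0.19, edgeR adjusted p 1.3e-05). Between Leydig and Sertoli the log2 difference was 0.11 ± 0.17 (edgeR adjusted p 0.641).

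Renin is made in the kidney and, in the mouse, also in fetal adrenal and gonad. Ren1 (ENSMUSG00000070645, chromosome 1, 133350510 to 133360325, plus strand) had 81.6, 51.1 and 76.1 CPM in Leydig libraries A, B and C, 21.2, 14.8 and 16.6 CPM in Interstitial, and 71.7, 60.3 and 62.2 CPM in Sertoli. Leydig replicates A and C were the highest of the 9 libraries, and Leydig replicate B lay below all 3 Sertoli libraries. Ren1 was 3.71-fold higher in Leydig than in Interstitial (log2 1.89 ± 0.23, edgeR adjusted p 0.000344) and 3.8-fold lower in Interstitial than in Sertoli (log2 -1.93 ± 0.23, edgeR adjusted p 0.000117). Between Leydig and Sertoli it stood at -0.04 ± 0.22 (edgeR adjusted p 0.916). Many mouse strains carry a near-identical renin gene, Ren2, next to Ren1. With the strain background not given in the sources used here, reads of both may count as Ren1, and the gene's own level is uncertain.

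Sct and Ren1 were both low in Interstitial and alike in Leydig and Sertoli libraries, and their promoters are shown because these were the 2 of 7 members in the RefSeq promoter table (GRCm38.p6) with a match to a searched motif. The search covered both strands of the 250 bases before each start for AAGGTCA, the core letters bound by SF1, and for TATAAA. The Sct window holds AAGGTCA on the strand opposite to the gene, read here as TGACCTT with its first base 114 bases before the start, and TATAAA beginning 28 bases before it. The Ren1 window holds TATAAA 29 bases before the start, of which a short stretch is printed. Capitals mark the matches, and both sequences read 5′ to 3′ on the gene's strand. The Sct window lies at chr7:141279134-141279383 (minus) and the printed Ren1 stretch at chr1:133350634-133350663 (plus). The RefSeq start of Ren1 used here, 133350674, lies inside the gene as placed by GENCODE M21, which begins at 133350510.
Sct, 250 bases before the start: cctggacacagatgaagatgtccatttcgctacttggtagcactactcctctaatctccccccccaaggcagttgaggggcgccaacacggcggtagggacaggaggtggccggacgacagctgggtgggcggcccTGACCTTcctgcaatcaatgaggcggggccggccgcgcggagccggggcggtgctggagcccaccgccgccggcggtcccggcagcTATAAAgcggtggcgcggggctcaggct
Ren1, stretch with TATAAA: tacatggtgtgTATAAAagaaggctcaggg
Over the whole table AAGGTCA was found in 4.7% of 27025 genes and in 1 of 7 members, and TATAAA in 14.3% of genes and in 2 of 7 members. Over single windows these shares were 4.08% and 12.4% of 32851. A match of letters is a description of the sequence and was not tested for binding.

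Rxfp2, the receptor for Insl3, had the opposite pattern to its ligand in Leydig against Interstitial (ENSMUSG00000053368, chromosome 5, 150018675 to 150082184, plus strand). It had 5.05, 4.7 and 5.63 CPM in Leydig libraries A, B and C, 9.2, 7.16 and 8.29 CPM in Interstitial, and 0.729, 0.293 and 0.458 CPM in Sertoli. The 3 populations did not overlap, with Interstitial highest and Sertoli, at 10 to 26 reads per library, lowest. Rxfp2 was 9.14-fold higher in Leydig than in Sertoli (log2 3.19 ± 0.32, edgeR adjusted p 8.77e-05) and 15.2-fold higher in Interstitial than in Sertoli (log2 3.93 ± 0.31, edgeR adjusted p 9.83e-06). Without Sertoli replicate A these log2 differences were 4.00 (edgeR adjusted p 0.000435) and 4.73 (edgeR adjusted p 6.92e-05), and with any 1 library left out they ranged from 2.69 to 4.00 and from 3.42 to 4.73. Leydig was 1.66-fold lower than Interstitial (log2 -0.73 ± 0.24, edgeR adjusted p 0.0339). That call was lost without Leydig replicate A (-0.79, edgeR adjusted p 0.0529), Leydig replicate B (-0.69, edgeR adjusted p 0.0698) or Interstitial replicate A (-0.55, edgeR adjusted p 0.193). Of the 7 interstitial progenitor markers, 4 were higher and 1, Nr2f1, lower in Leydig than in Interstitial, and all 7 were higher in Interstitial than in Sertoli. Of the 8 mesonephric and coelomic markers, 7 were lower in Leydig than in Interstitial, 4 were higher in Leydig than in Sertoli and 8 were higher in Interstitial than in Sertoli. Their sums were 120 to 127 CPM in Leydig, 212 to 220 in Interstitial and 32.1 to 35.1 in Sertoli, with Upk3b the largest contributor in Leydig and Interstitial. The 9 macrophage and leukocyte markers were all ordered like Rxfp2, with sums of 12.9 to 23.2 CPM in Leydig, 50 to 78.3 in Interstitial and 1.32 to 1.91 in Sertoli. The part of these cell types in the Rxfp2 level was not tested.

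Lhcgr (ENSMUSG00000024107, chromosome 17, 88716481 to 88791990, minus strand) had 8.75, 4.84 and 9.09 CPM in Leydig libraries A, B and C, 1.11, 0.902 and 1.1 CPM in Interstitial, and 5.69, 4.16 and 4.88 CPM in Sertoli. Leydig replicates A and C were the highest, and Leydig replicate B fell within the Sertoli range. Lhcgr was 6.75-fold higher in Leydig than in Interstitial (log2 2.76 ± 0.33, edgeR adjusted p 0.00031), and 5.05-fold lower in Interstitial than in Sertoli (log2 -2.34 ± 0.33, edgeR adjusted p 0.000332). Against Sertoli the Leydig difference was 0.42 ± 0.28 (edgeR adjusted p 0.288). It was 0.83 (edgeR adjusted p 0.0163) without Leydig replicate B and -0.07 (edgeR adjusted p 0.866) without Leydig replicate A, so that 1 library decided its direction. With all 9 libraries it was 0.62 (edgeR adjusted p 0.0181).

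Prlr (ENSMUSG00000005268, chromosome 15, 10177238 to 10349180, plus strand) was one of the 2 receptors called higher in Leydig than in Sertoli. It had 32.5, 21.3 and 26 CPM in Leydig libraries A, B and C, 9.1, 7.71 and 9.44 CPM in Interstitial, and 16, 14.3 and 15 CPM in Sertoli. No populations overlapped, and the order was Leydig, Sertoli, Interstitial. Prlr was 3.22-fold higher in Leydig than in Interstitial (log2 1.69 ± 0.19, edgeR adjusted p 0.000239) and 1.72-fold higher than in Sertoli (log2 0.79 ± 0.18, edgeR adjusted p 0.00964). Interstitial was 1.87-fold lower than Sertoli (log2 -0.90 ± 0.19, edgeR adjusted p 0.00342). Without Sertoli replicate B the Leydig against Sertoli difference was 0.71 and was not called (edgeR adjusted p 0.0819). Prlr shares 203 exonic bases with Gm21973, which had 0 reads in all 9 libraries.

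Crhr1 (ENSMUSG00000018634, chromosome 11, 104132855 to 104175523, plus strand) had 7.67, 4.49 and 6.76 CPM in Leydig libraries A, B and C, 1.26, 0.815 and 1.3 CPM in Interstitial, and 4.32, 3.81 and 3.91 CPM in Sertoli. Each Leydig library was above each Sertoli library, though Leydig replicate B exceeded Sertoli replicate A by little. Crhr1 was 5.84-fold higher in Leydig than in Interstitial (log2 2.55 ± 0.31, edgeR adjusted p 0.000344), and Interstitial was 4.02-fold lower than Sertoli (log2 -2.01 ± 0.32, edgeR adjusted p 0.000591). Leydig against Sertoli stood at 0.54 ± 0.27 (edgeR adjusted p 0.161). It was called without Leydig replicate B (0.92, edgeR adjusted p 0.0112), with all 9 libraries (0.65, edgeR adjusted p 0.00828), without a filter on low counts (0.58, edgeR adjusted p 0.0258) and with the replicate block (0.51, edgeR adjusted p 0.0456). Without Leydig replicate A it was 0.10 (edgeR adjusted p 0.803).

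Vcam1 (ENSMUSG00000027962, chromosome 3, 116109949 to 116129688, minus strand) set Leydig apart from both other populations. It had 45.7, 34.8 and 42.4 CPM in Leydig libraries A, B and C, 14.5, 13.1 and 14.7 CPM in Interstitial, and 15.7, 17.6 and 17.6 CPM in Sertoli. Even the lowest Leydig library was above every library of the other populations. Vcam1 was 2.94-fold higher in Leydig than in Interstitial (log2 1.56 ± 0.14, edgeR adjusted p 6.51e-05) and 2.35-fold higher than in Sertoli (log2 1.23 ± 0.14, edgeR adjusted p 0.000141). Interstitial and Sertoli differed by -0.32 ± 0.14 and were not called (edgeR adjusted p 0.0715), although their libraries did not overlap. That difference was called without Leydig replicate A (-0.33, edgeR adjusted p 0.0163), without Leydig replicate B (-0.27, edgeR adjusted p 0.0371), with all 9 libraries (-0.27, edgeR adjusted p 0.0244), without a filter on low counts (-0.27, edgeR adjusted p 0.049) and with the replicate block (-0.33, edgeR adjusted p 0.0403). It was -0.19 without Interstitial replicate B (edgeR adjusted p 0.388) and -0.16 with library size alone (edgeR adjusted p 0.355). Vcam1 is also made by endothelium and stroma. The summed endothelial markers were at 250 to 286 CPM in Leydig, 266 to 308 in Interstitial and 48.5 to 51.3 in Sertoli. The smooth muscle and pericyte markers were at 409 to 487, 354 to 397 and 281 to 310 CPM. Of the 10 endothelial markers, 5 were called higher and 2 lower in Leydig than in Interstitial, and 9 higher and 0 lower than in Sertoli. Of the 8 smooth muscle and pericyte markers, 4 were higher and 1 lower than in Interstitial, and 5 higher and 1 lower than in Sertoli. The part of these cell types in the Vcam1 level was not tested. Vcam1 and Rxfp2 overlap antisense genes of the annotation over 61 and 294 exonic bases, and with the strand setting of the counting unknown, reads of both strands may have been counted there.

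The authors' deposited tables, which hold genes with an adjusted p under 0.05 and an absolute log2 fold change of at least 1, list fewer members. In Leydig against Sertoli the authors' deposited table lists Rxfp2 (log2 3.43) and Vcam1 (1.27). In Leydig against Interstitial it lists 6 members as higher, from Vcam1 at 1.51 to Lhcgr at 2.78. In Interstitial against Sertoli the authors' deposited table lists Rxfp2 at 4.13 and 4 members as lower, Crhr1 (-1.81), Ren1 (-1.86), Sct (-2.14) and Lhcgr (-2.20). Insl3 is in none of these authors' deposited tables.

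Levels per gene length gave the order of abundance within each population. In Leydig libraries Ren1 was first at 40 RPKM (mean of replicates A and B), followed by Sct (18.9), Vcam1 (4.54), Crhr1 (2.47), Prlr (1.75), Insl3 (1.14), Lhcgr (0.889) and Rxfp2 (0.857). The neighbours Crhr1 and Prlr, Insl3 and Lhcgr, and Lhcgr and Rxfp2 overlapped over the 3 libraries. In Interstitial libraries Ren1 (10.9) and Sct (3.68) again led, and Rxfp2 stood at 1.44 RPKM, overlapping with Vcam1 at 1.56 RPKM. Prlr (0.548) and Crhr1 (0.422) overlapped, and Insl3 (0.256) and Lhcgr (0.132) came last. In Sertoli libraries Ren1 stood at 39.8 RPKM and Sct at 17 RPKM. Vcam1 (1.88), Crhr1 (1.65), Prlr (0.987), Insl3 (0.982) and Lhcgr (0.645) followed, with overlaps between Prlr and Insl3 and between Insl3 and Lhcgr. Rxfp2 was last there at 0.0898 RPKM. The place of Insl3 rests on its full exon length: over the bases not shared with Jak3, at 3.23 RPKM in Leydig, 0.728 in Interstitial and 2.79 in Sertoli, it would stand above Crhr1 in Leydig, above Prlr in Interstitial and above Vcam1 in Sertoli.

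The members were also set against the steroid synthesis genes of the same library. The ratio is the log2 CPM of a member minus the mean log2 CPM of Star, Cyp11a1, Hsd3b1 and Cyp17a1. Only the spread of this ratio is of use, since it is not per length. Lhcgr kept the ratio most nearly constant, at -3.55 to -3.26 in Leydig, -3.72 to -3.31 in Interstitial and -3.80 to -3.60 in Sertoli. It spanned 0.54 over the 9 libraries, while the log2 level of Lhcgr spanned 3.26. Crhr1 was at -3.73 to -3.58 in Leydig, -3.55 to -3.43 in Interstitial and -4.03 to -3.92 in Sertoli, a span of 0.60 beside 3.15 for its level. For Sct the span was 0.83 beside 2.61, for Ren1 0.97 beside 2.46 and for Insl3 1.58 beside 2.49. Ren1 was higher relative to the steroid synthesis genes in Interstitial (0.20 to 0.64) than in Leydig (-0.33 to -0.09) or Sertoli (-0.05 to 0.04). The ratio varied less than the level in these 5 genes. In Prlr it varied about as much (1.83 beside 2.07), and in Vcam1 (2.62 beside 1.80) and Rxfp2 (6.99 beside 4.73) it varied more. Vcam1 stood at -1.17 to -0.64 in Leydig, -0.08 to 0.47 in Interstitial and -2.15 to -1.73 in Sertoli. Rxfp2 stood at -4.33 to -3.51 in Leydig, -0.80 to -0.40 in Interstitial and -7.39 to -6.47 in Sertoli.

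**Figure D3:**
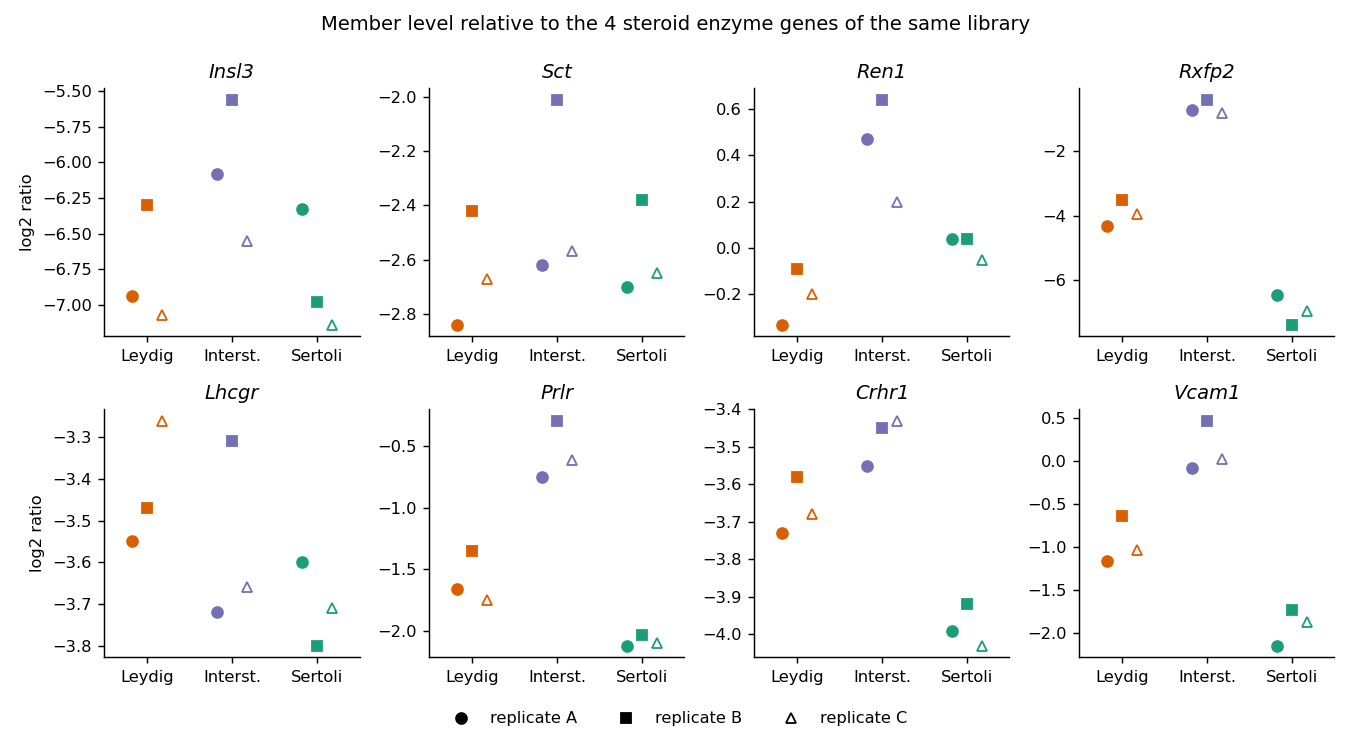
Log2 ratio of each of the 8 genes to the mean of the 4 steroid synthesis genes in the same library. Each library is 1 point, and each gene has an axis of its own. The points of Lhcgr span 0.54 and those of Crhr1 0.60, while Rxfp2 spans 6.99, with Interstitial highest and Sertoli lowest.

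The pools themselves differed. In Leydig replicate A all 8 members were higher than in replicate B, from 1.08-fold (Rxfp2) to 1.81-fold (Lhcgr), where 50.5% of tested genes were higher in A. The steroid synthesis genes were 1.60-fold (Star) to 2.19-fold (Cyp11a1) higher in the same library. Crhr1 was 1.71-fold, Ren1 1.60-fold, Prlr 1.53-fold and Sct 1.42-fold higher in Leydig replicate A. The sum of the 8 germ cell markers was 55.3 CPM in Leydig replicate A, 228 in B and 104 in C, and that of the erythroid markers 140, 501 and 215 CPM. In Interstitial 8 of 8 members were higher in replicate A, where 46.7% of genes were, and in Sertoli 6 of 8, where 50.0% were, with Sct and Vcam1 the exceptions. Sertoli replicate A had 1.98-fold more Insl3 and 2.49-fold more Rxfp2 than replicate B, both at few reads. The part of the makeup of the pools in these differences was not tested. The level in replicate C lay between those in A and B in 96.8% of 94 Leydig genes that differed at least 2-fold between A and B, in 87.1% of 31 Interstitial and in 100% of 27 Sertoli genes. A wide gap between A and B by itself favours a level between them. Among the members, Insl3 in C lay outside that gap in each population. So did Rxfp2 and Lhcgr in Leydig, Prlr, Crhr1 and Vcam1 in Interstitial, and Sct and Vcam1 in Sertoli.

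**Figure D4:**
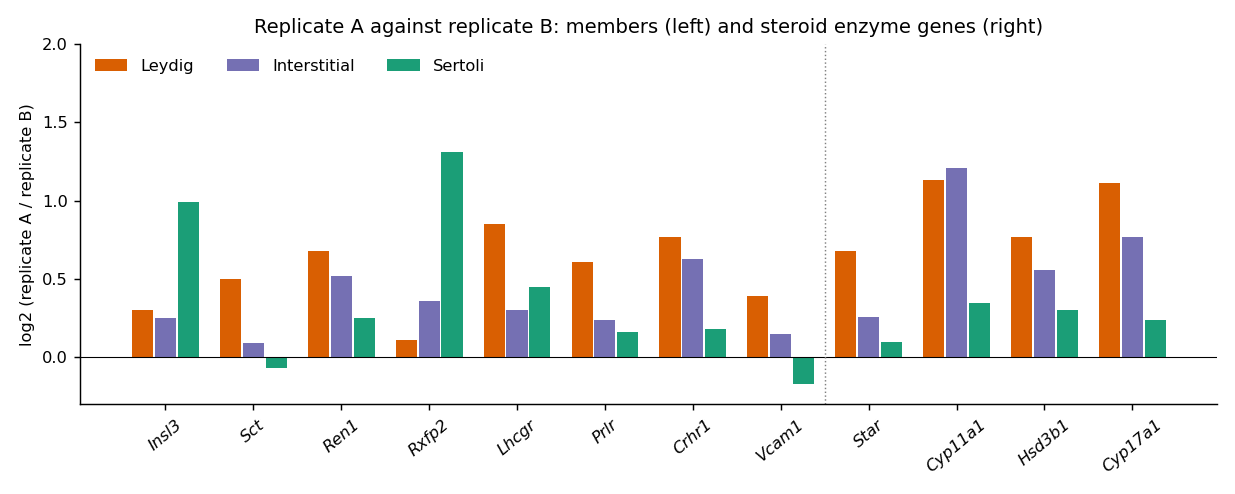
Log2 ratio of replicate A over replicate B for the 8 genes and the 4 steroid synthesis genes, 1 bar per population. All 12 Leydig bars are above 0. The bars of Sct and Vcam1 in Sertoli are below 0, and the tallest bar is that of Rxfp2 in Sertoli, a gene at 10 to 26 reads there.

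Genes with profiles most like each member were found as the 3 tested genes with the smallest root-mean-square distance of centred log2 CPM over the 9 libraries. Sct was nearest to Star (0.09), then Mal (0.17) and Ren1 (0.21). Lhcgr was nearest to Cyp17a1 (0.17), Hsd3b1 (0.20) and Crhr1 (0.21), and Crhr1 to the oxytocin receptor gene Oxtr (0.12), Cyp17a1 (0.17) and Star (0.19). Steroid synthesis genes were thus among the 3 nearest of Sct (Star alone), Lhcgr and Crhr1, whose levels had a range of 2.61 to 3.26 over the libraries. Ren1 was nearest to Mal (0.13), Foxs1 (0.14) and Fam129a (0.17). Vcam1 was nearest to Pdyn (0.09), Art3 (0.10) and its binding partner Itga4 (0.12). Prlr was nearest to Vsnl1 (0.08), the receptor gene Prokr2 (0.11) and Trac (0.14), and Rxfp2 to the matrix gene Cilp (0.21) and Lrrn4 (0.23). For Insl3, the nearest were Ephx1 (0.23), Wfdc1 (0.25) and Kcnj12 (0.28). The 9 libraries fall into 3 populations, so such likeness is mostly that of 3 levels.

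The other relaxin family genes were low, though Insl6 and Rln1 stood near Insl3 or above it. Insl6 averaged 0.764 CPM in Leydig, 0.824 in Interstitial and 1.66 in Sertoli, and Rln1 0.698, 0.482 and 0.559 CPM (replicates A and B). Of 9 listed genes, Insl3 and Rxfp2 included, 5 passed the filter. In Leydig against Sertoli 1 was higher (Rxfp2) and 1 lower (Insl6, log2 -1.16 ± 0.28, edgeR adjusted p 0.0121). In Leydig against Interstitial 1 was higher (Insl3) and 2 lower (Rxfp2 and Rxfp3), and in Interstitial against Sertoli 2 were higher (Rxfp2 and Rxfp3) and 2 lower (Insl3 and Insl6). The median log2 fold changes were 0.16, -0.10 and -0.25. Beside this list and those that follow, 37.5%, 45.1% and 61.8% of all tested genes were called in the same 3 comparisons. The medians over all tested genes were -0.01, 0.01 and 0.04. No list was tested as a set. Rxfp3, the receptor for relaxin 3, had 1, 0 and 1 reads in Leydig libraries A, B and C, 23, 13 and 12 in Interstitial, and 2, 1 and 0 in Sertoli. Rxfp1, the relaxin receptor closest to Rxfp2, had 5, 2 and 12 reads in the Interstitial libraries and 0 in all Leydig and Sertoli libraries.

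Among 17 genes of gonadotropin receptors and cyclic AMP signalling, 15 were tested. Of these 3 were higher and 5 lower in Leydig than in Sertoli, 10 higher and 2 lower in Leydig than in Interstitial, and 4 higher and 11 lower in Interstitial than in Sertoli. Their medians were 0.07, 0.43 and -0.46. Gnas, which encodes the stimulatory G protein subunit used by Lhcgr and Crhr1, averaged 625 ± 66.2 CPM in Leydig, 429 ± 24.6 in Interstitial and 533 ± 4.92 in Sertoli (SD, n = 2 each). It was higher in Leydig than in Interstitial (log2 0.56 ± 0.08, edgeR adjusted p 0.000877) and not called against Sertoli (edgeR adjusted p 0.112). Fshr, the follicle stimulating hormone receptor of Sertoli cells, had 16, 5 and 12 reads in Leydig libraries A, B and C, 1 read in each Interstitial library, and 35, 32 and 37 reads in Sertoli.

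Of 11 genes around the prolactin and growth hormone receptors, 10 were tested. In Leydig against Sertoli 4 were higher and 2 lower, in Leydig against Interstitial the 4 called were all higher, and in Interstitial against Sertoli 3 were higher and 5 lower, with medians of 0.03, 0.27 and -0.18. Ghr, the growth hormone receptor, averaged 97.2 ± 2.98 CPM in Leydig, 78.3 ± 0.645 in Interstitial and 42.6 ± 1.45 in Sertoli (SD, n = 2 each), and was 2.22-fold higher in Leydig than in Sertoli (edgeR adjusted p 3.82e-06). The kinase gene Jak2 averaged 48.2, 46.5 and 46.3 CPM in Leydig, Interstitial and Sertoli and was not called in any comparison. Stat5b, a transcription factor downstream of Prlr, was 1.29-fold higher in Leydig than in Interstitial (edgeR adjusted p 0.0107), and Stat5a was not called in any comparison. Cish, an inhibitor that Stat5 induces in many cells, averaged 4.42 ± 0.592 CPM in Leydig, 2.9 ± 0.235 in Interstitial and 10.2 ± 0.122 in Sertoli (SD, n = 2 each). It was 2.38-fold lower in Leydig than in Sertoli (edgeR adjusted p 0.00025) while Prlr was higher. Of the Socs genes on the list, Socs2 was also lower there (2.81-fold, edgeR adjusted p 1.28e-05). Socs1 (1.55-fold, edgeR adjusted p 0.0275) and Socs3 (1.82-fold, edgeR adjusted p 0.0101) were higher. The ligand gene Prl had 1 read over the 9 libraries.

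The ligand genes of the corticotropin releasing hormone family had few reads. Crh, whose product binds Crhr1, had 0 reads in the 3 Leydig libraries, 0, 0 and 1 in Interstitial and 2, 0 and 0 in Sertoli, and Ucn, whose product binds both receptors, had at most 1 read per library. Ucn2 and Ucn3 encode ligands that prefer Crhr2, and had 1 to 9 reads per library (Ucn2) and 0 in all 9 (Ucn3). Crhbp, which encodes a binding protein for these peptides, had 0, 2 and 1 reads in Interstitial replicates A, B and C and 0 elsewhere. Of 11 genes of the family and of the corticotropin branch 4 were tested, of which 1 was higher in Leydig than in Sertoli, 3 were higher in Leydig than in Interstitial, and 3 were lower in Interstitial than in Sertoli (medians 0.04, 1.92 and -1.57). Mc2r, the corticotropin receptor gene of adrenal and fetal Leydig cells in the mouse, averaged 6.14 ± 1.27 CPM in Leydig, 2.51 ± 0.261 in Interstitial and 2.88 ± 0.172 in Sertoli (SD, n = 2 each). It was 2.07-fold higher in Leydig than in Sertoli (edgeR adjusted p 0.00315) and 2.46-fold higher than in Interstitial (edgeR adjusted p 0.00106). Its accessory protein gene Mrap was 7.24-fold higher in Leydig than in Interstitial (edgeR adjusted p 0.00376), where it had 4 to 7 reads per library. Crhr2, the other receptor of the family, had 4 to 8 reads per library in Leydig, 3 to 5 in Interstitial and 9 to 18 in Sertoli. Pomc, which encodes the corticotropin precursor, averaged 1.3 ± 0.331 CPM in Leydig, 0.944 ± 0.146 in Interstitial and 1.98 ± 0.0185 in Sertoli (SD, n = 2 each), and was lower in Interstitial than in Sertoli (edgeR adjusted p 0.00553).

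The receptor for secretin was likewise scarce. Sctr had 0, 2 and 3 reads in Leydig libraries A, B and C, 11, 3 and 13 in Interstitial, and 0, 1 and 2 in Sertoli. Of 20 secretin family ligands and receptors 12 were tested, with the 6 called all higher in Leydig than in Sertoli, 3 higher and 4 lower in Leydig than in Interstitial, and 6 higher and 2 lower in Interstitial than in Sertoli. The medians were 1.07, 0.12 and 0.90. Gipr, the receptor of another gut hormone, was 3.57-fold lower in Leydig than in Interstitial in replicates A and B (log2 -1.84 ± 0.53, edgeR adjusted p 0.0212). It had 0.12, 0.173 and 0.676 CPM in Leydig libraries A, B and C and 0.396, 0.698 and 0.772 CPM in Interstitial, so that Leydig C lay within the Interstitial range.

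In the renin angiotensin system, the substrate and a receptor gene had unlike patterns. Agt, which encodes angiotensinogen, averaged 2.47 ± 0.637 CPM in Leydig, 0.79 ± 0.212 in Interstitial and 3.21 ± 0.851 in Sertoli (SD, n = 2 each). Like Ren1, it was higher in Leydig than in Interstitial (log2 1.64 ± 0.32, edgeR adjusted p 0.00365) and not called in Leydig against Sertoli (-0.43 ± 0.28, edgeR adjusted p 0.28). Agtr2, the type 2 angiotensin receptor gene, averaged 2.08 ± 0.375 CPM in Leydig, 54.3 ± 15 in Interstitial and 1.04 ± 0.271 in Sertoli. It was 25.9-fold lower in Leydig than in Interstitial (log2 -4.69 ± 0.23, edgeR adjusted p 3.08e-06) and 49.8-fold higher in Interstitial than in Sertoli (edgeR adjusted p 3.17e-07). The type 1 receptor gene Agtr1a averaged 0.984, 1.3 and 0.484 CPM in Leydig, Interstitial and Sertoli and was called in Interstitial against Sertoli alone (2.58-fold higher, edgeR adjusted p 0.0122). Ace, which encodes the enzyme that makes angiotensin II, averaged 0.897 ± 0.0352 CPM in Leydig, 1.51 ± 0.456 in Interstitial and 1.76 ± 0.289 in Sertoli (SD, n = 2 each) and was 2.02-fold lower in Leydig than in Sertoli (edgeR adjusted p 0.0261). Atp6ap2, the prorenin receptor gene, was 1.34-fold lower in Leydig than in Sertoli (edgeR adjusted p 0.00101). Of 14 listed genes of the system 12 were tested: 3 were higher and 5 lower in Leydig than in Sertoli, 5 higher and 2 lower in Leydig than in Interstitial, and 4 higher and 6 lower in Interstitial than in Sertoli, with medians of -0.23, 0.08 and -0.42.

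**Figure D5:**
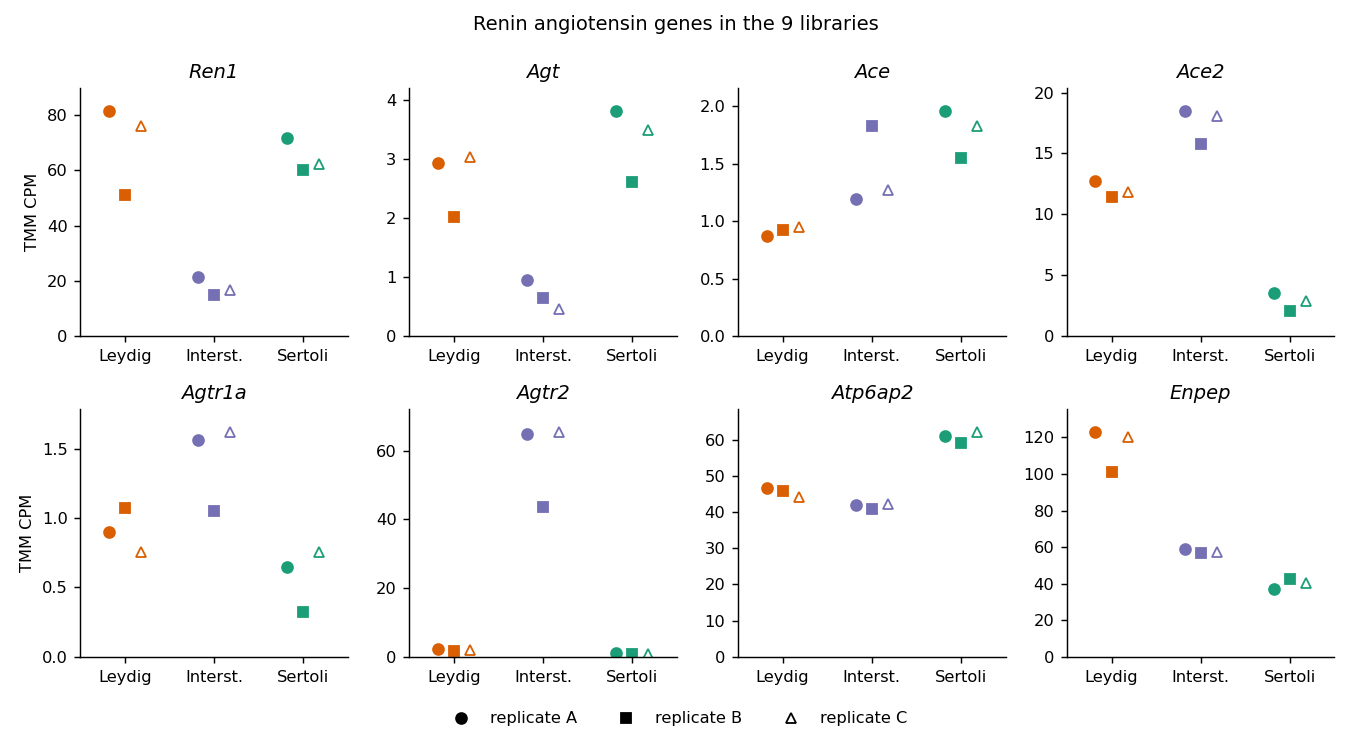
Levels of Ren1 and 7 other renin angiotensin genes in the 9 libraries, in TMM-normalised CPM on linear axes that start at 0. Filled circles and squares are replicates A and B, open triangles replicate C. Ren1 and Agt are low in Interstitial, Agtr2 is high in Interstitial alone, and Enpep is highest in Leydig.

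The integrin subunits that bind Vcam1 differed in the same direction in part. Itga4 averaged 117 ± 14.2 CPM in Leydig, 47.2 ± 1.35 in Interstitial and 55.1 ± 5.74 in Sertoli, and Itga9 410 ± 62.3, 195 ± 11 and 210 ± 5.77 CPM (SD, n = 2 each). Itga4 was 2.06-fold higher in Leydig than in Sertoli (edgeR adjusted p 6.09e-05) and 2.51-fold higher than in Interstitial (edgeR adjusted p 2.78e-05). Itga9 was 1.9-fold higher than in Sertoli (edgeR adjusted p 0.00012) and 2.12-fold higher than in Interstitial (edgeR adjusted p 7.77e-05). Their common partner Itgb1 was 1.47-fold higher in Leydig than in Interstitial (edgeR adjusted p 0.000155) and stood at 0.01 ± 0.06 against Sertoli (edgeR adjusted p 0.925). Itgb7, a leukocyte integrin subunit that also pairs with Itga4, was 5.63-fold lower in Leydig than in Interstitial (edgeR adjusted p 0.00319). All 9 macrophage and leukocyte markers were lower in Leydig than in Interstitial, with sums of 12.9 to 23.2 CPM in Leydig and 50 to 78.3 in Interstitial. So were all 7 tested germ cell markers and all 8 erythroid markers. The part of any of these cells in the Itgb7 level was not tested. Of the 13 adhesion genes listed all were tested, and 9 were higher and 1 lower in Leydig than in Sertoli, 6 higher and 3 lower in Leydig than in Interstitial, and 8 higher and 3 lower in Interstitial than in Sertoli. The medians were 0.92, 0.27 and 0.32.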

How the data were processed

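Total RNA of sorted cells was sequenced in 9 libraries, each over 4 lanes. The authors deposited raw counts of reads for each gene in each lane of a library. According to the submitters' processing notes, alignment and counting were done with TopHat2 2.0.6 (mouse genome mm10) and HTSeq. The sources used here do not give the annotation release, overlap mode or strand setting of the counting. Another 3 tables, deposited by the authors, are limma output: per the file headers they list a log2 fold change, scores (moderated t, log odds) and a raw and an adjusted p-value for each gene. Their model is not given.

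Counts were summed over lanes, with the 5 HTSeq summary lines left out (32.23 to 38.52% of reads were outside genes). Symbols, coordinates and exon lengths came from GENCODE M21, which named 36722 of 38560 genes. The 6 libraries of replicates A and B were fitted together (3 residual degrees of freedom) in edgeR 4.0.16 (R 4.3.3; TMM, filterByExpr, glmQLFit, glmQLFTest). Adjustment was by Benjamini and Hochberg over 18048 genes, and a call means an adjusted p under 0.05. The common biological coefficient of variation was 0.0871. With 2 pools a population, p-values measure the spread between pools, not between animals. The fit was checked on simulated counts with known changes. Levels are CPM with TMM factors over all 9 libraries, and log2 ratios and distances used a prior count of 2. Alternatives were RLE factors, library size alone, DESeq2 1.42.0, limma voom (limma 3.58.1), other filters, all 9 libraries, a replicate block, lane pairs and leaving out each library.

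The members and lists were chosen with earlier results of these data known. Named are all members, a list of genes taken as their partners (which includes Rxfp1, Ghr, Mc2r and Pomc), and the 2 called genes of each list with the largest log2 fold change in Leydig against Interstitial. Other genes named, such as Insl6, Ucn2 and Ucn3, were chosen after their values were seen. A gene shown as lower has its fold given as a ratio above 1. A gene among those with the most similar profiles is not reported here.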

Additional observations from a re-analysis of the deposited data

How the results depend on the processing

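Of 381 values of single members under alternatives, 351 kept their direction and their side of the threshold, 6 lost a call, 11 gained one and 13 changed sign. None of the 13 was a called value (0 of the calls past the threshold reversed). All 13 belong to Leydig against Sertoli. Ren1, at -0.04 as reported, was at 0.067 with library size alone, 0.009 without a filter on low counts, 0.103 with all 9 libraries, 0.006 on lanes 1 and 2 and 0.009 on lanes 3 and 4, and ranged from -0.41 to 0.31 with 1 library left out. Insl3 was at -0.26 on lanes 1 and 2 and ranged from -0.24 to 0.74 with 1 library left out. With 1 library left out, Lhcgr ranged from -0.07 to 0.83 and Sct from -0.16 to 0.39. The cause was not tested.

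The number of members called in Leydig against Sertoli, 3, was 5 with all 9 libraries and ranged from 2 (without Sertoli replicate B) to 5 (without Leydig replicate B). It ranged from 7 to 8 in Leydig against Interstitial and from 6 to 8 in Interstitial against Sertoli over all alternatives. A fit that leaves out a library assumes that the lone sample varies like those of the other populations. The share of all genes called under each alternative, the replicate block included, is not given here. A change in these counts is therefore not set here against a change in the calls of all genes.

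Whether samples with the same letter share sorts or litters cannot be settled from the counts. The differences between A and B correlated across genes at r = 0.02 (Leydig and Sertoli), 0.25 (Leydig and Interstitial) and 0.10 (Interstitial and Sertoli). A low correlation across genes cannot exclude such sharing. With the replicate block the counts of members called were 4, 8 and 8.

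The precision of Insl3 (4 to 29 reads a library) and of Rxfp2 in Sertoli (10 to 26 reads) is limited by depth. Insl3 was left out by the filter at 1 CPM and has no value under it.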

Other observations

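The following genes were chosen after their values were seen. In the secretin family list the genes higher in Leydig than in Sertoli include Calcrl, a receptor for adrenomedullin and calcitonin gene-related peptide, and its partner Ramp2. Calcrl averaged 21.5 ± 2.09 CPM in Leydig, 17.2 ± 1.89 in Interstitial and 6.18 ± 0.94 in Sertoli, and Ramp2 24.3 ± 1.95, 14.4 ± 3.78 and 7.87 ± 0.724 CPM (SD, n = 2 each). Both were called in Leydig against Sertoli (3.38-fold and 3-fold higher, edgeR adjusted p 2.42e-05 and 0.000138). The parathyroid hormone receptor gene Pth1r (2.75-fold, edgeR adjusted p 0.000296) and the PACAP receptor gene Adcyap1r1 (2.13-fold, edgeR adjusted p 1.48e-05) were also higher in Leydig than in Sertoli. The summed endothelial markers were at 250 to 286 CPM in Leydig, 266 to 308 in Interstitial and 48.5 to 51.3 in Sertoli libraries, and their part in these levels was not tested.

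Genes that make or break down cyclic AMP differed between Leydig and Sertoli libraries in both directions. The adenylate cyclase gene Adcy9 averaged 22.6 ± 0.249 CPM in Leydig, 8.54 ± 0.221 in Interstitial and 54 ± 3.88 in Sertoli (SD, n = 2 each). The phosphodiesterase genes Pde8a (24.6 ± 0.646, 12.2 ± 0.776 and 41.8 ± 1.75 CPM) and Pde8b (3.33 ± 0.143, 1.5 ± 0.149 and 10.2 ± 1.62 CPM) had the same order. In Leydig against Sertoli Adcy9 was 2.46-fold, Pde8a 1.75-fold and Pde8b 3.15-fold lower (edgeR adjusted p 7.24e-06, 9.78e-05 and 0.000107). Another adenylate cyclase gene, Adcy3, was 1.43-fold higher (edgeR adjusted p 0.000673) and another phosphodiesterase gene, Pde4b, 1.77-fold higher in Leydig than in Sertoli (edgeR adjusted p 0.0238).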
